A study of Mus musculus with 8 samples.

Results

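SR splicing factors and heterogeneous nuclear ribonucleoproteins (hnRNPs) were examined in dermal fibroblasts sorted from female mice fed high fat chow (HFD) or control chow (ND, normal diet). Members were all genes whose symbol in the platform annotation starts with Srsf and a number, or with Hnrnp. This gave 26 of the 17097 genes measured, 9 SR genes and 17 hnRNP genes, read by 72 probe sets that name only that gene. Hnrnph3, named only together with Rufy2, was not analysed here. Of the 26 genes, 8 had 1 probe set and 18 had several, up to 6 for Srsf3. Each gene was represented by its brightest probe set, and the other probe sets were then compared with it.

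The HFD group held 4 specimens and the ND group 4, each taken as 1 mouse, which the labels do not state. All mice were female, put on their diet at 2 months of age, kept on it for 6 months and killed on the same day. Strain and genotype are not given in the labels. Dermal cells positive for Pdgfra and CD34 and negative for CD45, CD117, CD24, CD31 and EpCam were sorted, 10000 per mouse, and their RNA was amplified over 20 cycles before hybridisation. The labels exclude ND 4 by quality control, so HFD 1 to 4 were compared with ND 1 to 3, and the number of arrays limits the precision.

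SR proteins carry an RNA-recognition motif and a tail rich in arginine and serine. They bind exons and help the U1 and U2 small nuclear ribonucleoproteins to find splice sites. The tail is phosphorylated by Srpk and Clk kinases, and the phosphorylated proteins enter the nucleus on the importin Tnpo3. hnRNPs coat nascent transcripts, often oppose SR proteins at exons, and also act in the stability, export and translation of mRNA. Many genes of both families splice their own transcripts into forms that are degraded, so that 1 gene can give several transcripts and probe sets of that gene can read different ones.

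In HFD fibroblasts 2 of the 26 genes were higher than in ND fibroblasts, Hnrnpa1 by 1.5-fold and Hnrnpd by 1.35-fold, 0 were lower and 24 did not pass the threshold (limma, adjusted p under 0.05 over all 17097 genes). Of all genes 5.35% passed, 2.62% as higher and 2.73% as lower, so with 26 members a count of 2 lies near the background. No SR gene passed on its brightest probe set, and Srsf6 did when _x_at and _s_at probe sets, which can read other sequences too, were left out. Single probe sets of Srsf1 and Srsf10 did pass, and those of Srsf1 went in opposite directions. At an unadjusted p under 0.05 in the same limma fit, 10 members were higher and 5 lower, where 12.3% and 9.83% of all genes were.

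The promoters of the 4 genes with a probe set past the threshold are shown because they are the starting points of the transcripts that the results turn on. Each line gives the 120 bases before the annotated start of the gene, 5′ to 3′ on the strand of the gene, from RefSeq on GRCm38.p6. Capitals mark CCAAT boxes, which are those letters on either strand. They also mark GC boxes, which are GGGCGG on either strand. A CCAAT box on the other strand can share its last letters with a GC box, which does not occur in these windows.
Hnrnpa1 (chr15:103240277-103240396, plus strand): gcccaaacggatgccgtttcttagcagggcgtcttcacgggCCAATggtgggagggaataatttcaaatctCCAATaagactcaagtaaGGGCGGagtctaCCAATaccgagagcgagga
Hnrnpd (chr5:99978939-99979058, minus strand): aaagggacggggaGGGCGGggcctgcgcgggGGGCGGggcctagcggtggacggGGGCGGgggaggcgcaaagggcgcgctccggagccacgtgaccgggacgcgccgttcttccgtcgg
Srsf1 (chr11:88047253-88047372, plus strand): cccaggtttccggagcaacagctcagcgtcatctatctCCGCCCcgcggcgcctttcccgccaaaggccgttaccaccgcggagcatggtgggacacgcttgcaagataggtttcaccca
Srsf10 (chr4:135855951-135856070, plus strand): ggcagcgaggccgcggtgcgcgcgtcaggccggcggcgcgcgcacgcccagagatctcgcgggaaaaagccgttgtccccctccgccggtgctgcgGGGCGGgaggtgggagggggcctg

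The Hnrnpa1 window holds 3 CCAAT boxes and 1 GC box, the Hnrnpd window 0 and 3, and the Srsf1 and Srsf10 windows 0 and 1 each. In the 250 bases before the start, 18 of the 33 promoters of 24 members hold a CCAAT box (54.5%), against 33.8% of all 32851 promoters in the table. A GC box stands in 26 of the 33 (78.8%), against 32.7% of all. For the other motifs searched the shares were 9.1% against 12.4% for TATAAA, 6.1% against 6.0% for CACGTG, and 15.2% against 6.9% for CCGGAAG, each on either strand. Some members have several promoters, which can overlap, so the 33 are not independent. Of the 24 genes, 15 hold a CCAAT box, 19 a GC box, 3 TATAAA, 2 CACGTG and 3 CCGGAAG in any promoter. The share of all genes was not counted in this way. These matches describe the letters alone, and 2 members had no entry in the table.

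The members were among the brighter genes of the arrays. Their median level was 10.31 on the log2 scale, against 6.77 for all genes, and 25 of the 26 lay at or above that median. Hnrnpab, a DNA- and RNA-binding protein of the A/B type, was the brightest at 13.03, followed among SR genes by Srsf2, a protein of nuclear speckles, at 11.60. Srsf12, an SR protein that represses splicing, was the dimmest at 4.75. Levels of different probe sets are not comparable as amounts of RNA, since each has its own binding strength.

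The 4 HFD arrays and ND 1 to 3 were fully separated in 13 of the 26 genes, in 10 with HFD above and in 3 with HFD below. Over all genes the share was 17.9%, with 9.95% above and 7.99% below. Among the 8554 genes at or above the median level it was 27.6%, with 14.9% above and 12.7% below, where 10 and 3 of 25 members stood. When only those 8554 genes were tested, 5 members were higher and 1 was lower (limma, adjusted p under 0.05), where 8.17% and 8.04% of the genes were. The median change of the 17 hnRNP genes was 0.14 log2, that of the 9 SR genes 0.005, and that of all genes 0.02. The mean level of the hnRNP genes was 10.16 to 10.29 in the 4 HFD arrays and 10.13 to 10.17 in ND 1 to 3, so the groups overlapped, and it was 10.26 in ND 4.

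**Figure D1:**
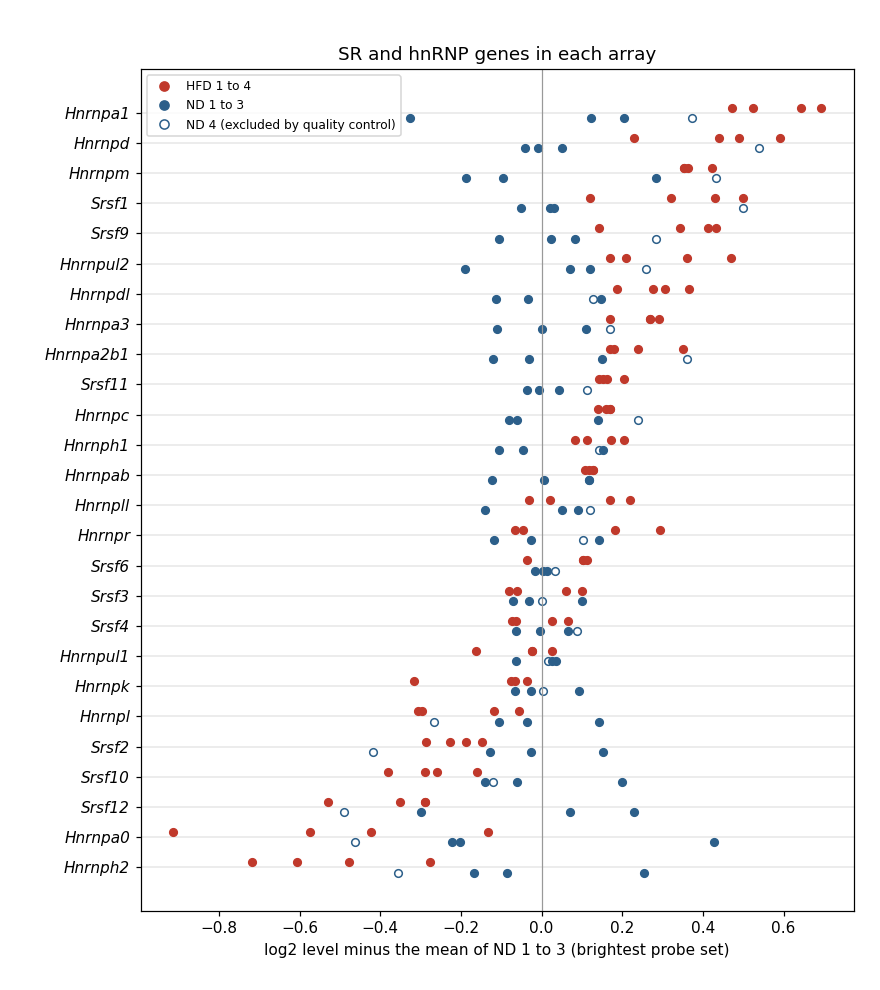
Log2 level of each of the 26 genes in every array, minus the mean of ND 1 to 3, with 1 row per gene ordered by the change, HFD arrays (red) above ND arrays (blue) and ND 4 as an open circle. The HFD points of Hnrnpa1 and Hnrnpd lie to the right of ND 1 to 3, and those of Hnrnph2 to the left.

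Hnrnpa1 encodes the archetypal exon-silencing hnRNP, which competes with SR proteins for splice site choice. Its brightest probe set, 1430019_PM_a_at, read 11.12, 11.34, 11.29 and 11.17 in HFD 1 to 4, against 10.77, 10.85 and 10.32 in ND 1 to 3. All HFD arrays were above all of these ND arrays, and ND 3 was the lowest. The means were 11.23 ± 0.10 in HFD (SD, n = 4) and 10.65 ± 0.29 in ND (SD, n = 3), a log2 change of 0.58 (SE 0.12, limma adjusted p = 0.0315). ND 4 read 11.02, between the groups.

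The other probe sets of Hnrnpa1 were dimmer and changed more. Probe set 1430020_PM_x_at read 10.14, 10.42, 10.42 and 10.29 in HFD, against 9.8, 9.79 and 9.27 in ND 1 to 3, a change of 0.70 (SE 0.14). Probe set 1423531_PM_a_at read 8.84, 9.19, 9.15 and 9.15 in HFD, against 8.12, 8.12 and 7.67 in ND 1 to 3, a change of 1.11 (SE 0.14). All 3 passed when every probe set was tested alone (limma over 45037 probe sets, adjusted p = 0.0369, 0.0323 and 0.0163 in the order given). The last of them read 9.16 in ND 4, within the HFD arrays. In Affymetrix naming, _x_at marks a probe set that shares probes with other sequences, _s_at one that reads transcripts of several genes, and _a_at one that reads several transcripts of 1 gene. Hnrnpa1 has processed copies elsewhere in the genome, so signal from those cannot be told apart here.

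Hnrnpd encodes AUF1, which binds AU-rich elements and promotes the decay of mRNAs that carry them. Its brightest probe set read 9.73, 9.78, 9.52 and 9.88 in HFD 1 to 4, against 9.25, 9.28 and 9.34 in ND 1 to 3. The groups did not overlap, with means of 9.73 ± 0.15 (SD, n = 4) in HFD and 9.29 ± 0.05 (SD, n = 3) in ND. The log2 change was 0.44 (SE 0.10, limma adjusted p = 0.0363). ND 4 read 9.83, above 3 of the 4 HFD arrays. The other probe sets of Hnrnpd were near the bottom of the scale, at 4.47 and 4.18, and differed by 0.02 and 0.06.

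Both calls rest on few arrays. Hnrnpa1 stayed past the threshold in 3 of 7 fits that each left out 1 array, and was lost without HFD 2 (adjusted p = 0.0684), HFD 3 (0.0817), HFD 4 (0.0832) or ND 3 (change 0.42, adjusted p = 0.0867). Hnrnpd stayed past it in 1 of 7, and was lost without HFD 2 (adjusted p = 0.0836), HFD 3 (0.0634), HFD 4 (0.103), ND 1 (0.0663), ND 2 (0.071) or ND 3 (0.112). With ND 4 included the changes were 0.49 and 0.30 (limma adjusted p = 0.159 and 0.294), and 6 of all genes passed in place of 914. Of all genes 212, 6, 9 and 11 passed without HFD 2, HFD 3, HFD 4 and ND 3 in turn. The loss in those fits was thus not particular to these 2 genes. Without HFD 1, ND 1 and ND 2 in turn, 1072, 814 and 485 of all genes passed.

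The RNA quality measure moved with the diets in the same arrays. For the housekeeping controls Gapdh and Actb, the level at the 3′ end minus that at the 5′ end was −0.41 ± 0.03 (SD, n = 4) in HFD and −0.27 ± 0.08 (SD, n = 3) in ND, with −0.18 in ND 3 and −0.37 in ND 4. With it as a covariate the change of Hnrnpa1 was 0.16 and that of Hnrnpd 0.37 (limma adjusted p = 0.999 for both), and 0 of all genes passed. ND 3 was the lowest or highest of the 7 arrays in 15 of the 26 members (57.7%), against 41.5% of all genes. ND 4 lay nearer to the HFD mean than to the mean of ND 1 to 3 in 19 of the 26 (73.1%), against 60.8% of all genes. The measure ran from −0.44 to −0.375 in HFD and from −0.335 to −0.18 in ND 1 to 3, without overlap. Diet and RNA quality therefore cannot be told apart in this fit, and the part of RNA quality was not tested further.

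Among markers of other cells, all 19 measured of 20 keratinocyte genes had a positive change (median 0.34) and 0 passed the threshold, with 5 higher and 0 lower at an unadjusted p under 0.05. Those 5 were Perp (change 1.55), Dsp (1.41), Krt1 (1.14), Dsg1a (0.35) and Klf5 (0.21). Krt5 was at 9.05 ± 1.08 in HFD and 8.19 ± 0.61 in ND, and Krt14 at 7.42 ± 0.64 in HFD and 6.95 ± 0.20 in ND (SD, n = 4 and 3), and 11 of the 19 lay below the median gene. The mean level of the list was 6.12 to 7.26 in HFD arrays and 6.07 to 6.43 in ND 1 to 3, and it was 6.72 in ND 4. With that mean as a covariate Hnrnpa1 changed by 0.50 and Hnrnpd by 0.43 (limma adjusted p = 0.153 and 0.152), and 17 of all genes passed. Of the 12 fibroblast markers 2 passed, Fbln1 (change −0.26) and Lum (−0.335), both lower in HFD, and 10 did not. Cd34 was at 12.1 ± 0.05 in HFD and 12.08 ± 0.02 in ND (SD, n = 4 and 3), while Pdgfra was dim at 6.27 and 5.92. Of 11 measured blood markers Tyrobp passed (change 0.32), at 5.92 in HFD and 5.6 in ND, and 10 lay below the median gene. Ptprc, the gene of CD45, was at 4.03 in HFD and 4.08 in ND. None of the 9 endothelial, 8 muscle and pericyte, 7 nerve and melanocyte or 4 adipocyte markers measured passed in limma, with 0 endothelial, 1 muscle and pericyte, 0 nerve and melanocyte and 0 adipocyte markers at an unadjusted p under 0.05. The part of other cell types in these results was not tested beyond the keratinocyte fit. In bulk RNA of sorted cells, fewer cells of a kind and less RNA per cell cannot be told apart.

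On their brightest probe sets, other genes of the A/B and D types differed in the same direction without passing the threshold. Hnrnpa3, an A/B protein, read 11.25, 11.27, 11.15 and 11.25 in HFD 1 to 4, against 11.09, 10.98 and 10.87 in ND 1 to 3. The groups did not overlap, and the change was 0.25 (SE 0.07, limma adjusted p = 0.0747). Its other 3 probe sets changed by −0.20, 0.04 and 0.01, and the mean of all 4 by 0.03 (adjusted p = 0.892). Hnrnpdl, a relative of Hnrnpd, read 11, 11.09, 11.12 and 11.18 in HFD, against 10.7, 10.96 and 10.78 in ND 1 to 3, a difference of 0.28 (SE 0.08, limma adjusted p = 0.0699). HFD was again above ND in every array compared, and its other 3 probe sets changed by 0.11 to 0.19. Hnrnpa2b1, which binds sequences that sort RNAs within cells, read 10.49, 10.66, 10.48 and 10.55 in HFD, against 10.28, 10.46 and 10.19 in ND 1 to 3 (change 0.235, SE 0.09, adjusted p = 0.147). Its 4 probe sets agreed within 0.07 log2 in their change. ND 4 read 10.67 for Hnrnpa2b1, higher than any HFD array.

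Hnrnpa0, an A/B protein that binds AU-rich elements, went the other way. It read 9.61, 9.32, 8.83 and 9.17 in HFD 1 to 4, against 9.52, 9.54 and 10.17 in ND 1 to 3. The groups overlapped, ND 3 was far above the other ND arrays, and the difference of −0.51 (SE 0.20) did not pass (limma adjusted p = 0.161). Hnrnpab had 13.08, 13.09, 13.09 and 13.07 in HFD, against 13.08, 12.97 and 12.84 in ND 1 to 3, a difference of 0.12 (SE 0.06, adjusted p = 0.263). All 5 of its probe sets had a positive change.

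Among the hnRNPs that bind runs of G, Hnrnph2 differed by −0.52 (SE 0.13, limma adjusted p = 0.0504), just short of the threshold. It read 8.95, 8.75, 8.51 and 8.62 in HFD 1 to 4, against 9.14, 9.06 and 9.48 in ND 1 to 3, and 8.87 in ND 4. All HFD arrays were below ND 1 to 3. Its close relative Hnrnph1 differed by 0.14 (SE 0.08, adjusted p = 0.307), and the groups overlapped.

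The remaining hnRNP genes bind other sequences. Hnrnpm, a splicing regulator that binds GU-rich sites, read 9.54, 9.47, 9.48 and 9.47 in HFD, against 9.02, 9.4 and 8.93 in ND 1 to 3. HFD was above in every array compared, with a difference of 0.37 (SE 0.11, limma adjusted p = 0.0804), while ND 4 read 9.55, above all of them. Hnrnpul2, a relative of the nuclear scaffold protein hnRNP U, read 9.54, 9.73, 9.58 and 9.84 in HFD, against 9.44, 9.49 and 9.18 in ND 1 to 3 (change 0.30, SE 0.11, adjusted p = 0.131). Its dimmer probe set differed by 0.03. The U-tract binder Hnrnpc differed by 0.16, the CA-repeat binder Hnrnpl by −0.19, the poly-C binder Hnrnpk by −0.12, Hnrnpll, which controls CD45 splicing in T cells, by 0.10, Hnrnpr by 0.09 and Hnrnpul1 by −0.05. None of these passed, with limma adjusted p from 0.239 to 0.816.

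Of the 9 SR genes, 0 passed in either direction on the brightest probe set (limma), while 3 were higher and 3 lower at an unadjusted p under 0.05, where 12.3% and 9.83% of all genes were. Srsf1, the factor also known as ASF/SF2, and Srsf9, its closest relative, had positive differences. The brightest Srsf1 probe set read 8.74, 8.67, 8.36 and 8.56 in HFD 1 to 4, against 8.26, 8.27 and 8.19 in ND 1 to 3 (change 0.34, SE 0.10, adjusted p = 0.0813). Srsf9 read 8.1, 8.03, 7.83 and 8.12 in HFD, against 7.77, 7.71 and 7.58 in ND 1 to 3 (change 0.33, SE 0.10, adjusted p = 0.0773). Neither gene overlapped between the groups, and ND 4 read 8.74 and 7.97, within the HFD arrays.

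Srsf10, which represses splicing when dephosphorylated, read 10.72, 10.59, 10.5 and 10.62 in HFD 1 to 4, against 10.74, 10.82 and 11.08 in ND 1 to 3. HFD was below in every array compared (change −0.27, SE 0.09, limma adjusted p = 0.121). Srsf2 read 11.43, 11.57, 11.53 and 11.49 in HFD, against 11.69, 11.59 and 11.87 in ND 1 to 3 (change −0.21, SE 0.08, adjusted p = 0.137). That probe set is an _s_at, and another _s_at probe set changed by −0.22. A further _s_at probe set changed by 0.01, and the remaining probe sets, both _at, by −0.03 and −0.01. Without _x_at and _s_at probe sets the change of Srsf2 was −0.03 (adjusted p = 0.907). ND 4 read 11.3 for Srsf2, below every other array. Srsf12 read 4.61, 4.67, 4.67 and 4.43 in HFD, against 5.19, 4.66 and 5.03 in ND 1 to 3 (change −0.365, SE 0.11, adjusted p = 0.0787). ND 2 lay among the HFD arrays of Srsf12, and all values were low on the scale.

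For Srsf3, Srsf4 and Srsf6 the differences on the brightest probe set were small. Srsf3, the smallest SR protein and an adaptor of mRNA export, differed by 0.005 (95% interval −0.17 to 0.18), Srsf4 by −0.01 (−0.18 to 0.16) and Srsf6 by 0.07 (−0.09 to 0.23). The 6 probe sets of Srsf3 changed by −0.09 to 0.08. The brightest Srsf6 probe set is an _s_at, and its next, 1416720_PM_at, read 10.14, 10.37, 10.21 and 10.42 in HFD 1 to 4, against 9.96, 9.95 and 9.84 in ND 1 to 3. It differed by 0.37 (SE 0.09, limma adjusted p = 0.0533 over all probe sets). With _x_at and _s_at probe sets left out, so that fewer genes were tested and this one stood for Srsf6, the gene was higher in HFD at an adjusted p under 0.05, and 3 of the 26 members were. Srsf11 read 9.8, 9.79, 9.78 and 9.84 in HFD, against 9.6, 9.68 and 9.63 in ND 1 to 3, a difference of 0.17 (SE 0.07, limma adjusted p = 0.219) without overlap.

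Probe sets of 1 gene were then tested one by one. Of the 72, 5 were higher and 2 lower (limma, adjusted p under 0.05 over 45037 probe sets), where 3.56% of all passed, 1.63% as higher and 1.93% as lower. At an unadjusted p under 0.05, 21 were higher and 10 lower, where 10.6% and 10.1% of all probe sets were. HFD was above ND 1 to 3 without overlap in 23 and below in 7, where 8.79% and 8.10% of all were. The 5 that rose were the 3 of Hnrnpa1, the brightest of Hnrnpd and 1452430_PM_s_at of Srsf1. The 2 that fell were 1428100_PM_at of Srsf1 and 1418526_PM_at of Srsf10. With ND 4 included 0 of the 72 passed, and without HFD 2, HFD 3, HFD 4 or ND 3 the probe sets higher were 1, 0, 0 and 1 and those lower were 0. Of all 45037 probe sets 3 passed with ND 4 included, and 75, 12, 0 and 21 without those arrays in turn, in place of 1603. The median level of the 72 was 9.50, against 6.18 for all probe sets.

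**Figure D2:**
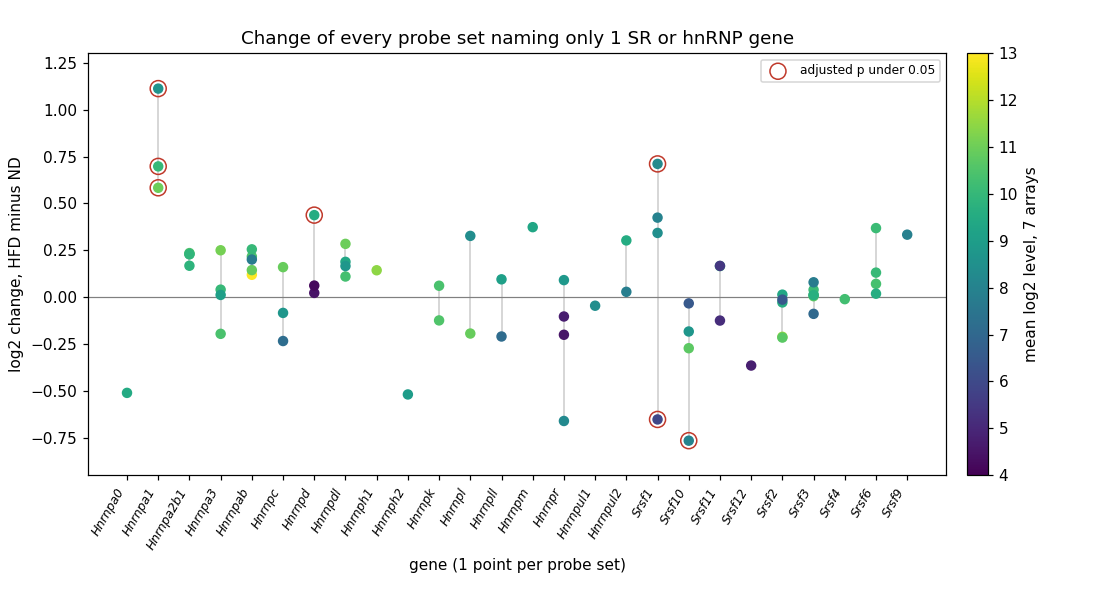
Log2 change, HFD minus ND, of the 72 probe sets by gene, coloured by mean log2 level, with red rings at an adjusted p under 0.05. The probe sets of Srsf3 and of Hnrnpa2b1 lie close together, while those of Srsf1 span 1.36 log2 and those of Hnrnpr 0.75.

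To ask whether probe sets of 1 gene responded differently, the log2 difference of each further probe set from the brightest of its gene was fitted in the same way. Of the 46 differences of members, 7 changed between the diets (limma, adjusted p under 0.05 over 11801 differences), 3 upward and 4 downward. Over all genes 15.0% changed, 7.77% upward and 7.28% downward, so 7 of 46 (15.2%) is at the background. The range of changes within a gene had a median of 0.33 log2 in the 18 members with several probe sets and 0.18 in all 7180 such genes. All probe sets shared a sign in 8 of the 18 (44.4%), against 46.8% of all such genes. Both measures depend on how many probe sets a gene has, and genes were not matched for that number or for level. They therefore cannot show whether probe sets of members disagree more or less than those of other genes. The sources used here do not say where in its transcripts each probe set lies, so a difference cannot be assigned to an isoform.

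Srsf1 had the largest of these differences among members. Probe set 1428100_PM_at, the dimmest of its 4, read 5.83, 5.7, 5.47 and 5.55 in HFD 1 to 4, against 6.3, 6.11 and 6.46 in ND 1 to 3, and fell, with a log2 change of −0.65 (SE 0.11, limma adjusted p = 0.0252). The other 3 were higher in HFD, and 1452430_PM_s_at read 8.49, 8.53, 8.43 and 8.82 in HFD, against 8.12, 7.82 and 7.63 in ND 1 to 3, a rise of 0.71 (SE 0.14, adjusted p = 0.0313). The difference of 1428100_PM_at from the brightest probe set was −2.945 ± 0.06 (SD, n = 4) in HFD and −1.95 ± 0.22 (SD, n = 3) in ND. It changed by −0.995 (SE 0.12, adjusted p = 0.00382). In ND 4 the 2 probe sets read 5.57 and 8.89, the dim one within the HFD arrays and the other above them.

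Srsf10 showed a fall in 1 probe set. Probe set 1418526_PM_at read 7.86, 7.87, 7.47 and 7.59 in HFD 1 to 4, against 8.26, 8.41 and 8.72 in ND 1 to 3, without overlap. It fell, with a log2 change of −0.77 (SE 0.14, limma adjusted p = 0.0286), while the other 3 changed by −0.27, −0.18 and −0.03. Its difference from the brightest changed by −0.49 (SE 0.10, adjusted p = 0.00844). ND 4 read 7.79, within the HFD arrays.

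In Hnrnpl the 2 probe sets differed in opposite directions. Probe set 1445594_PM_at read 8.44, 8.63, 8.45 and 8.48 in HFD 1 to 4, against 8.21, 8.14 and 8.17 in ND 1 to 3, while the brighter 1424101_PM_at read 10.91, 10.97, 10.72 and 10.73 in HFD and 10.99, 10.92 and 11.17 in ND 1 to 3. The difference between them changed by 0.52 (SE 0.09, limma adjusted p = 0.00588), although neither probe set passed alone. ND 4 read 8.09 and 10.76, so for 1445594_PM_at it lay below the other ND arrays.

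In Hnrnpr, a relative of Syncrip, 1427129_PM_a_at read 8.41, 8.09, 7.64 and 7.67 in HFD 1 to 4, against 8.52, 8.44 and 8.88 in ND 1 to 3. The brighter 1452030_PM_a_at changed by 0.09, and the difference between the 2 changed by −0.75 (SE 0.17, limma adjusted p = 0.0114). The groups did not overlap in that difference. In Hnrnpa3 the difference of 1452712_PM_at from the brightest changed by −0.45 (SE 0.09, adjusted p = 0.00988). In Hnrnpa1 the difference of 1423531_PM_a_at changed by 0.53 (SE 0.09, adjusted p = 0.00471). In Srsf6, whose protein is also called SRp55, that of 1416720_PM_at changed by 0.30 (SE 0.08, adjusted p = 0.0334). In Hnrnpd that of 1458273_PM_at, at 4.18, changed by −0.38 (SE 0.12, adjusted p = 0.0513).

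The differences in Srsf1, Hnrnpa1, Hnrnpl, Srsf10 and Hnrnpa3 each stayed past the threshold in 7 of 7 fits that left out 1 array. That of Hnrnpr did in 6 of 7, lost without ND 3 (adjusted p = 0.0508), and that of Srsf6 in 2 of 7, lost without HFD 2 (0.0866), HFD 3 (0.0883), HFD 4 (0.101), ND 2 (0.0547) or ND 3 (0.121). With ND 4 included none of the 7 passed (limma adjusted p from 0.0958 for Hnrnpl to 0.275 for Hnrnpa1), and with the 3′ minus 5′ covariate none did (from 0.912 to 0.941). With the keratinocyte mean as a covariate Srsf1 passed (adjusted p = 0.0404) and the other 6 did not (from 0.051 for Hnrnpa1 to 0.261 for Srsf6). With the replicate block none passed. Of all differences 0 passed with ND 4 included, with the 3′ minus 5′ covariate or with the block. With the keratinocyte mean 161 of all differences passed, in place of 1776.

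**Figure D3:**
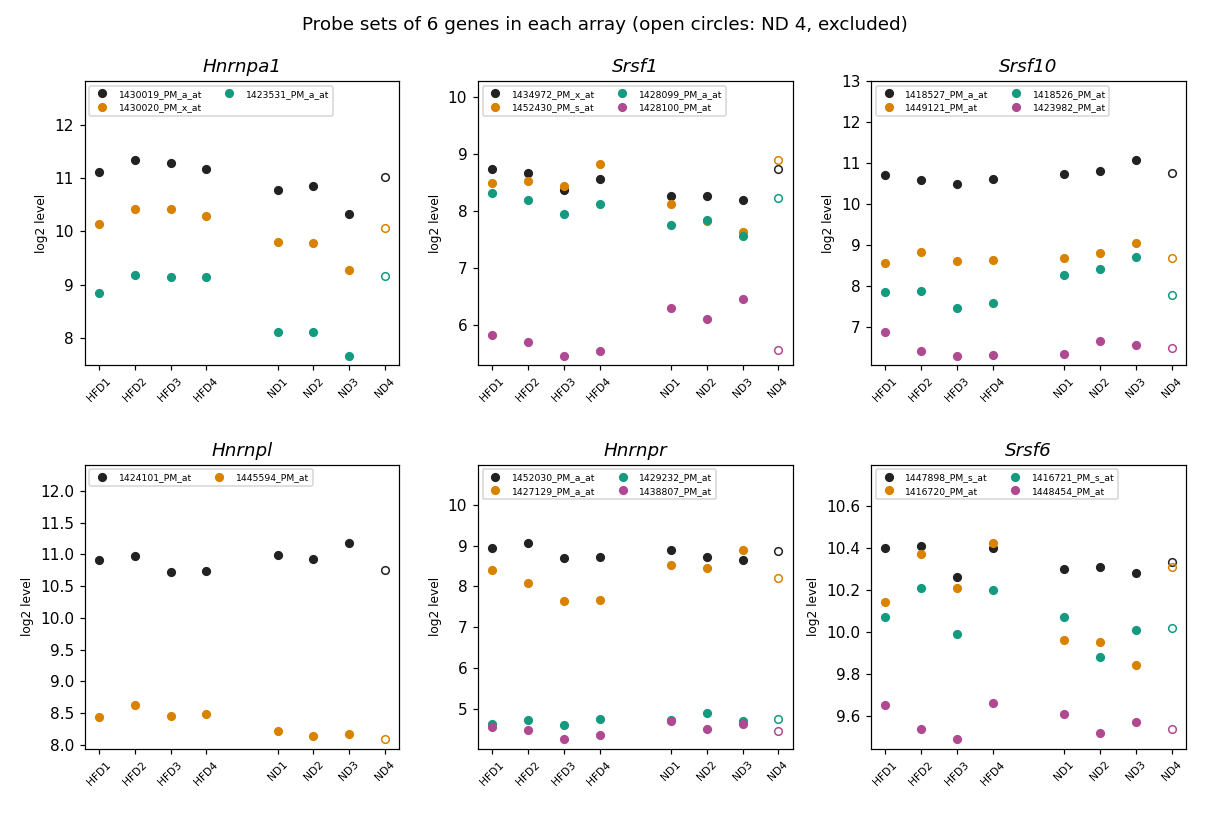
Log2 level of every probe set of Hnrnpa1, Srsf1, Srsf10, Hnrnpl, Hnrnpr and Srsf6 in each array, HFD left and ND right, with ND 4 as open circles and 1 colour per probe set. In Srsf1 the dimmest probe set is lower in HFD and the other 3 are higher, and ND 4 lies on the HFD side.

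Other lists of the splicing machinery were read in the same fit of the 7 arrays. Over all genes 2.62% were higher and 2.73% lower at an adjusted p under 0.05 (limma). At an unadjusted p under 0.05, 12.3% were higher and 9.83% lower. Regulators of SR proteins formed a list of 11 genes, of which Tnpo3, the importin of SR proteins, fell and 10 did not pass. In this list 3 were higher and 4 lower at an unadjusted p under 0.05. Tnpo3 read 10.84, 10.78, 10.81 and 10.53 in HFD 1 to 4, against 11.3, 11.15 and 11.47 in ND 1 to 3, and 10.6 in ND 4. It changed by −0.57 (SE 0.10, limma adjusted p = 0.0232), and its 3 other probe sets changed by −0.21, −0.31 and −0.18. The kinase genes Dyrk1a (−0.435), Srpk2 (−0.39) and Clk4 (−0.37) did not pass, with adjusted p of 0.0668, 0.0647 and 0.0636. Their probe sets differed in sign. The other Clk4 probe set, as bright as the first, changed by 0.31 (SE 0.12), those of Dyrk1a by −0.24 and 0.32, and the 5 others of Srpk2 by −0.58 to 0.16. The median of the list was −0.008, against 0.02 for all genes.

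Of 17 measured SR-related genes, Tra2a, a splicing activator, rose by 0.36 (SE 0.09, limma adjusted p = 0.045). Srrm1 fell, with a log2 change of −0.34 (SE 0.08, adjusted p = 0.0443), and the remaining 15 did not pass. In this list 2 were higher and 5 lower at an unadjusted p under 0.05. The other 4 Srrm1 probe sets differed by −0.04 to 0.21. Srrm2 differed by 0.29 and Luc7l2 by −0.41 (adjusted p = 0.0555 and 0.0652), with the other probe sets at −0.03 and 0.18 for Srrm2 and at −0.52 to 0.19 for Luc7l2. Of 19 measured hnRNP proteins with other symbols, 2 rose and 4 fell, where 2.62% and 2.73% of all genes did. In this list 4 were higher and 7 lower at an unadjusted p under 0.05 (limma). Tardbp, which encodes the RNA-binding protein TDP-43, rose by 0.73 (SE 0.12, adjusted p = 0.0224), and the cold-inducible Cirbp rose by 0.69 (SE 0.13, adjusted p = 0.0262). All 4 other Tardbp probe sets had a positive change. The polypyrimidine tract binder Ptbp1 fell by 0.47 on the log2 scale, Celf1 by 0.60, Nono by 0.44 and Raly by 0.40, at adjusted p of 0.0291 to 0.0475. The other probe sets of Celf1 differed by −0.035 to 0.10, those of Ptbp1 by −0.10 and 0.08, those of Nono by −0.65 and 0.0008, and that of Raly by 0.33.

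In the core spliceosome the Sm and LSm proteins, which form rings on the spliceosomal RNAs, had 3 of 14 genes higher and 0 lower (limma, 7 higher and 0 lower at an unadjusted p under 0.05). Over all genes 2.62% were higher, and 12.3% at an unadjusted p under 0.05. Snrpb rose by 0.50 (SE 0.10, adjusted p = 0.0302), Snrpf by 0.49 and Snrpe by 0.415, at adjusted p of 0.036 and 0.0407. The probe sets behind Snrpb and Snrpe are _s_at, and the other Snrpb probe set changed by 0.38. Snrpf lay at 6.62, below the median gene at 6.77. The median of the list was 0.22. The mean level of the list was 8.123 to 8.28 in HFD arrays and 7.96 to 8.118 in ND 1 to 3, so the groups nearly touched, and it was 8.16 in ND 4, within the HFD arrays. Of 19 genes of U1, U2 and U2AF, Puf60 rose by 0.40 (adjusted p = 0.0331) and 18 did not pass, with a list median of −0.07. In this list 4 were higher and 2 lower at an unadjusted p under 0.05 (limma). Snrpa1 differed by 0.38 and Snrpb2 by −0.44 (adjusted p = 0.0664 and 0.0773). The other probe sets of Snrpa1 differed by 0.80 and 0.54, and those of Snrpb2 by −0.54 and 0.04. Of 27 measured genes of the tri-snRNP and activated spliceosome, 10 were higher and 6 lower at an unadjusted p under 0.05 (limma). Of these 27, Aqr rose by 0.36 (adjusted p = 0.0481) and 24 did not pass. Prpf8, the protein at the catalytic centre, fell by 0.47 on the log2 scale and Cdc5l by 0.52, at adjusted p of 0.0338 and 0.0352. The dimmer Cdc5l probe set differed by 0.36, and the 4 dimmer Aqr probe sets by −0.29 to 0.01, so these calls rest on 1 probe set each.

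Among 16 measured tissue splicing regulators, 0 passed in either direction (limma, 3 higher and 2 lower at an unadjusted p under 0.05), and Mbnl1 differed by −0.53 (SE 0.14, adjusted p = 0.0602). The other probe sets of Mbnl1 differed by 0.11 and −0.07. Rbm17 differed by 0.24, Rbm25 by −0.22 and Tial1 by 0.18, each on the brightest probe set. The other probe set of Rbm17 differed by 0.085, and those of Rbm25 by −0.03 to 0.34. Those of Tial1 differed by 0.325 (SE 0.09), 0.17 and −0.65 (SE 0.11), the last against the brightest. Among 9 measured genes of nonsense-mediated decay, which degrades the self-regulatory transcripts of SR genes, 0 passed and 0 reached an unadjusted p under 0.05. Their changes ran from −0.03 to 0.19 on the brightest probe sets. For Smg1, the kinase of this pathway, the brightest differed by 0.19 and another by 0.11, while 2 dimmer ones differed by −0.51 (SE 0.10) and −0.50 (SE 0.08). The median of the 26 SR and hnRNP genes together was 0.11.

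**Figure D4:**
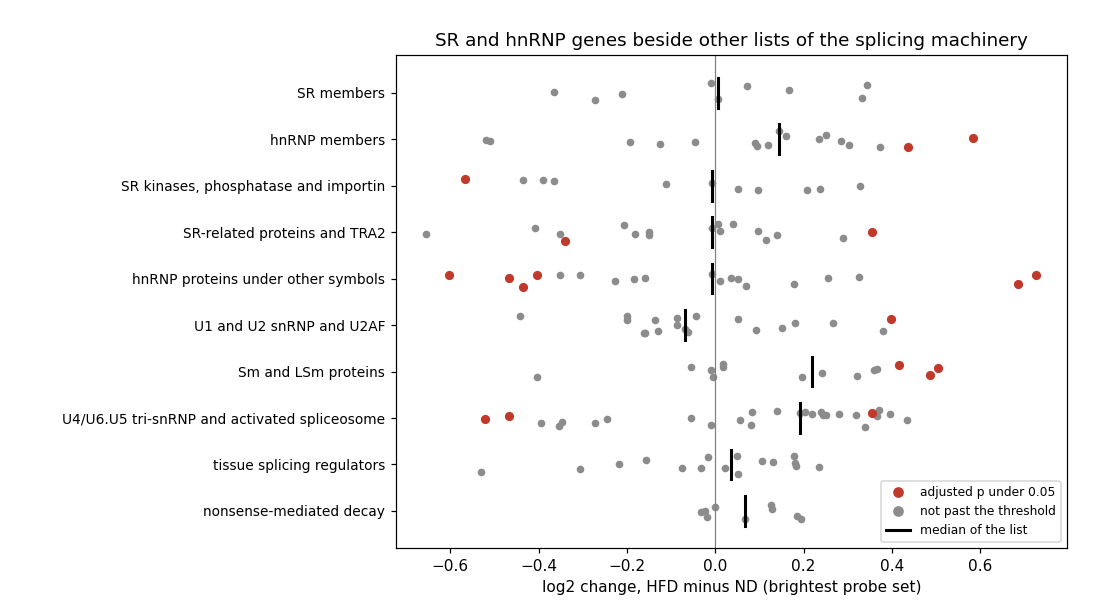
Log2 change, HFD minus ND, of each gene (brightest probe set) in the SR and hnRNP families and 8 other lists of the splicing machinery, with red points at an adjusted p under 0.05 and a black bar at the list median. The hnRNP members and the Sm and LSm list have medians of 0.14 and 0.22, the tri-snRNP list has 0.19, and the medians of the other lists lie between −0.07 and 0.07.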

How the data were processed

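The deposited values are log2 expression per probe set, made by the authors with RMA and the affy package per the submitters' processing notes. Their versions and settings are not stated in those notes. The table holds 45141 probe sets over 8 arrays, from 3.56 to 13.5, with quartiles within 0.04 between arrays, and was used without further scaling. The platform annotation gave 28898 probe sets 1 gene symbol, and symbols were updated by Entrez identifier for 28689.

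Members and lists were chosen with earlier results of these data known. The comparison of HFD 1 to 4 with ND 1 to 3 was fitted with limma 3.58.1 under R 4.3.3 (lmFit, eBayes with trend), with Benjamini-Hochberg adjustment over all features. For probe set differences the trend followed the mean level of both probe sets. At most 14 members by p and 8 probe set differences were described in full. Of each splicing list up to 4 genes of smallest p were named. Nono, Raly and the markers Krt1, Krt5, Krt14, Perp, Dsp, Dsg1a, Klf5, Cd34, Pdgfra, Ptprc, Fbln1, Lum and Tyrobp stand outside that rule and were chosen after their values were seen. The fits were tested on simulated data with independent noise for each feature and array. Effects shared across an array were not simulated. Alternatives were ND 4 included, arrays left out, a replicate block, other normalizations and eBayes settings, other probe set rules and 2 covariates. No 2 arrays were duplicates (smallest SD of a difference 0.165). Each specimen was taken as a mouse. Figures used matplotlib 3.10.9.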

Additional observations from a re-analysis of the deposited data

Results flagged for a closer look

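Of 32 sets of 4 HFD arrays examined among the named genes and probe sets, 3 had an array far from the others. The sets share the same 4 arrays, and how many would be flagged by chance was not tested. HFD 3 read 11.15 for Hnrnpa3, below the other 3 arrays at 11.25 to 11.27. HFD 1 read 9.54 for Hnrnpm, above the others at 9.47 to 9.48. HFD 1 read 8.84 for probe set 1423531_PM_a_at of Hnrnpa1, below the others at 9.15 to 9.19. Without HFD 1 that probe set changed by 1.19, against 1.11 with it.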

How the results depend on the processing

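Counts are given in the order of member genes higher (2) and lower (0), member probe sets higher (5) and lower (2), and member probe set differences changed (7). Over all 17097 genes, 45037 probe sets and 11801 differences the same counts were 448, 466, 732, 871 and 1776. With ND 4 included the member counts were 0, 0, 0, 0 and 0, with the 3′ minus 5′ covariate 0, 0, 0, 0 and 0, and with the keratinocyte mean as a covariate 0, 0, 0, 0 and 1. Over all features the counts were 5, 1, 2, 1 and 0 with ND 4 included and 0 throughout with the 3′ minus 5′ covariate. With the keratinocyte mean they were 12, 5, 3, 0 and 161. With the specimen number as a replicate block, which in effect drops HFD 4, the member counts were 0, 0, 0, 0 and 0. Over all features they were 1, 0, 0, 0 and 0. The labels do not say that equal numbers share anything, and same-numbered arrays correlated by −0.18, −0.29 and −0.05 in their deviations from the group means. With means of so few arrays, such correlations cannot settle whether the numbers pair the arrays. Without genes or probe sets dimmer than the median the member counts were 5, 1, 10, 2 and 6, where 16.2% of 8554 genes passed. Over all 8554 genes, 22523 probe sets and 5780 differences of that setting the counts were 699, 688, 1315, 1434 and 1498. At an adjusted p under 0.1 the member counts were 7, 2, 13, 5 and 13, and those over all features 994, 953, 2015, 2186 and 2611. Leaving out 1 array at a time gave member counts of 0 to 2, 0 to 1, 0 to 5, 0 to 4 and 5 to 9. In those fits 6 to 1072 of all genes, 0 to 1977 of all probe sets and 665 to 1974 of all differences passed. The mean of all probe sets of a gene gave 1 member higher (Hnrnpa1). Quantile normalization, robust eBayes and array weights gave 1 member lower each (Hnrnph2), leaving out _x_at and _s_at probe sets gave 3 members higher (Srsf6 added), and the other settings kept every count within 1.5 times. Of the 14 named genes 12 kept their sign in every setting. With the 3′ minus 5′ covariate Hnrnpul2 became −0.044 and Hnrnpa2b1 −0.008. The causes were not tested. Signal over background is known here from the level alone, and Srsf12 and the dimmer Hnrnpd probe sets lie where that limits any difference.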
